A study of Homo sapiens with 4 samples.

Results

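The replication-dependent histone genes were examined in A2780s, an ovarian adenocarcinoma cell line, after stable knockdown of GALNT3, an enzyme that starts mucin-type O-glycosylation. Members were all probes that are not array controls and whose accession belongs to a gene with an older symbol beginning HIST1H, HIST2H, HIST3H or HIST4H. This rule found 77 probes of 65 genes among the 41000 probes of the array. RefSeq lists 90 genes under these older symbols, 71 of them protein coding, and 25 of the 90 had no probe, among them 6 coding genes. By type, 6 probes report H1, 21 report H2A, 20 report H2B, 16 report H3 and 14 report H4. By cluster, 60 probes belong to HIST1 on chromosome 6, 13 to HIST2 and 3 to HIST3, both on chromosome 1, and 1 to HIST4 on chromosome 12.

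Total RNA came from 2 clones with shRNA against GALNT3, named sh-G1 and sh-G2, and from 1 mock-transfected clone, named ctrl, each selected with puromycin after transfection of a pSilencer 4.1 puro plasmid. Each group is a single clone, both knockdown clones carry the same shRNA, and ctrl carries the vector. The knockdown RNA carried Cy5 on replicate 1 of each clone and Cy3 on replicate 2, with ctrl in the other dye. All values are log2 ratios of knockdown over ctrl, so that 0 is no difference and 0.58 is 1.5-fold, and both dye orientations were averaged within a clone to give n = 2 clones.

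Replication-dependent histone genes encode the core histones H2A, H2B, H3 and H4, around which DNA is wound, and the linker histone H1, which binds where DNA enters and leaves the nucleosome. They are transcribed in S phase, when new DNA has to be packaged, at nuclear bodies organised by NPAT. Their mRNAs have no introns and end in a stem-loop bound by SLBP, in place of a poly(A) tail, and they are degraded when DNA synthesis stops. Some members, among them H1-2, H2AC6, H2BC4, H2BC5, H2BC12 and H2BC21, also give polyadenylated transcripts. Kits for linear amplification commonly prime from the poly(A) tail, which would favour such transcripts, but the primer is not named in the labels, and its part in the values was not tested. In a culture, fewer cells in S phase and less histone mRNA per cell cannot be told apart.

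The 4 arrays lay on 1 slide and held 43376 spots each that were not controls. The median spot intensity of an array ranged from 451.5 to 802.5 in Cy3 and from 463.25 to 558 in Cy5, over a local background of 38 to 41, and 0 spots were saturated. The GALNT3 probe had log2 ratios of -0.09 and 0.08 in sh-G1, followed by 0.12 and -0.14 in sh-G2. The knockdown channel of this probe was well above background on 2 arrays and the ctrl channel on all 4. With a signal so near background these ratios do not measure the knockdown, and no size is given for it. Probes of all 8 markers of ovarian carcinoma epithelium were well above background on the 4 arrays in both channels. Those of the leukocyte markers PTPRC and CD3E and of the endothelial marker CDH5 were as well, so that this mark did not separate cell types. The keratins KRT8 (mean -1.03) and KRT18 (mean -2.32) were lower in the knockdown clones (limma, Benjamini-Hochberg adjusted p = 0.03 and 0.04), and their part in the histone values was not tested.

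The signal was bright enough to be read for most members. Of the 77 member probes, 73 (61 genes) had a channel well above background on each array, as the filter asked, and in these 73 the other channel was above it too. The 4 probes left out were those of H1-1, H1-6, H2BC1 and H4C7. H1-6 and H2BC1 encode testis forms of H1 and H2B. In ctrl, H1-1 was well above background on 3 arrays, H4C7 on 2, H1-6 on 1 and H2BC1 on 0, against 0, 0, 1 and 0 arrays in the knockdown clones. Each was too dim for a fold change to be given. The probe sequences are not given here and many histone genes of a type are near-identical, so a probe may read several copies, and values of single genes are uncertain to that extent.

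No histone probe passed 1.5-fold on both arrays of a clone or limma's adjusted threshold, which few of all probes passed. Among the 73 probes, 0 were higher by at least 1.5-fold on both arrays of sh-G1 and 0 were lower by as much, where 0.442% and 1.24% of all 39152 probes kept were. In sh-G2 the counts were also 0 and 0, against 0.549% and 1.42% of all probes. On all 4 arrays together, 0.23% of all probes passed this size upward and 0.919% downward, and 0 histone probes did in either direction. By limma on the mean of the 2 clones, adjusted p was under 0.05 for 0 histone probes in the higher and 0 in the lower direction, against 0.138% and 0.7% of all probes. The array by array counts had no common direction, with 45 of 73 probes above 0 on replicate 1 of sh-G1, 31 on its replicate 2, 26 on replicate 1 of sh-G2 and 43 on its replicate 2. At an unadjusted p under 0.05 there were 14 histone probes, or 19.2%, where all probes had 13.3%. These were 7 higher probes (all probes 5.27%) and 7 lower ones (all probes 8.02%). Above 0 on all 4 arrays lay 9 histone probes, or 12.3%, where 6.2% of all probes did. Below 0 on all 4 lay 7, or 9.59%, where 9.05% of all probes did.

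The intervals of most histone probes were narrow, but they do not bound the difference that could have been missed. For 71 of the 73 histone probes the 95% interval of the mean lay inside 1.5-fold in both directions. It did for 93.2% of all probes. The exceptions among the histone probes were H1-3 and H3C10. The interval leaves out the spread of ctrl. It rests on 2 clone means, so disagreement between the dye-swapped arrays of a clone enters only through those means. H2AC6, with ratios of 0.47 and -0.50 in sh-G1 and 0.59 and -0.47 in sh-G2, had an interval of -0.17 to 0.21. The median standard error was 0.06 on the log2 scale. On single arrays, 7 of the 73 probes reached 1.5-fold on at least 1 of the 4 arrays, while 13.8% of all probes did.

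The median log2 ratio over the histone probes was 0.02 in sh-G1, -0.05 in sh-G2 and -0.02 for the mean of the clones. Over all probes kept the corresponding medians were -0.004, -0.01 and -0.004. The means of the histone probes ranged from -0.37 to 0.36. By type the median of the means was 0.04 for H1, -0.06 for H2A, -0.04 for H2B, 0.02 for H3 and 0.03 for H4. The plot by array shows that these medians changed sign between arrays of a clone for H1 in sh-G2, for H2A in sh-G2, for H2B in sh-G1 and for H3 in both clones, and stayed above 0 on all 4 arrays for H4. The H4 median of the clone values, which averages the arrays of each probe first, was 0.15 in sh-G1 and -0.01 in sh-G2. Single arrays moved these medians. Without replicate 2 of sh-G2 the median was -0.13 for H1, -0.13 for H2A and -0.06 for H3, and without replicate 1 of sh-G2 it was -0.01 for H2A and 0.14 for H4.

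**Figure D1:**
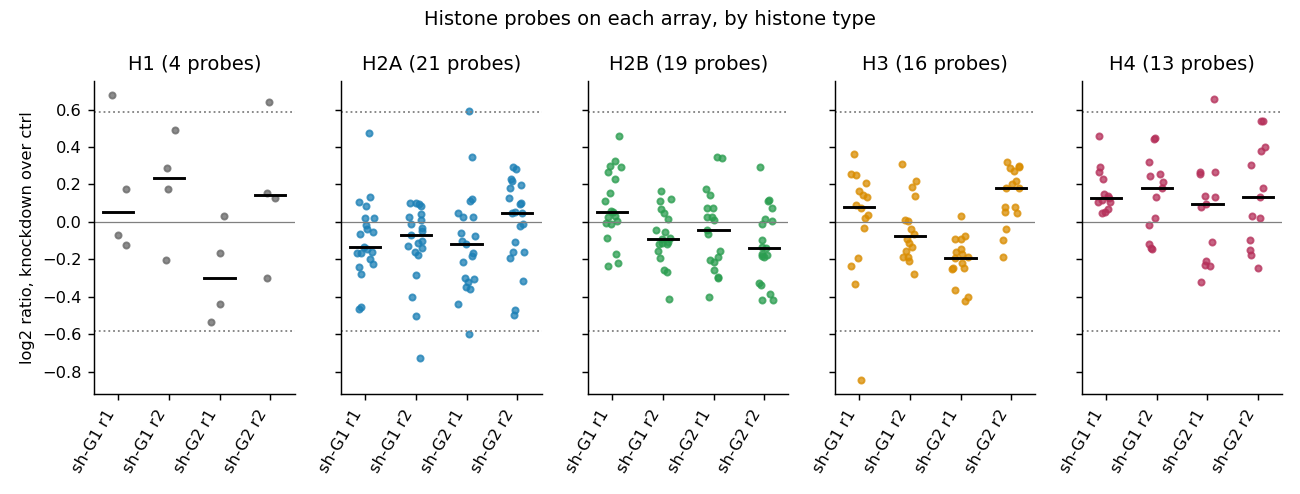
Log2 ratio of knockdown over ctrl (vertical axis) of each of the 73 histone probes on each of the 4 arrays (horizontal axis), in 1 panel per histone type. Points are probes, black lines are medians over the probes, and dotted lines mark 1.5-fold. Few points pass a dotted line, and the H4 medians lie above 0 on every array, while the median of the clone values was -0.01 in sh-G2.

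H4, the core histone with the most uniform protein, held the largest positive means. Of its 13 probes kept, 6 lay above 0 on all 4 arrays and 0 below 0 on all 4, where 6.2% and 9.05% of all probes did. The choice of these 6 followed their values, and since H4 coding sequences are near-identical they need not be independent readings. H4C6 had ratios of 0.23 and 0.45 in sh-G1 and of 0.14 and 0.54 in sh-G2. H4C8 had 0.46 and 0.13 in sh-G1 and 0.66 and 0.18 in sh-G2. H4C11 had 0.13 and 0.44 in sh-G1 and 0.26 and 0.54 in sh-G2. In H4C6 and H4C11 the array with the knockdown clone in Cy3 was the higher one in both clones, and in H4C8 it was the lower one.

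H4C15, the only H4 gene of HIST2 matched to a probe here, varied least of the 6, with 0.29 and 0.25 in sh-G1 and 0.27 and 0.30 in sh-G2. H4C12 had 0.07 and 0.32 in sh-G1 and 0.27 and 0.38 in sh-G2. H4C9 had 0.11 and 0.21 in sh-G1 and 0.10 and 0.40 in sh-G2. The mean of the clones was 0.36 for H4C8 (95% interval 0.19 to 0.52), 0.34 for H4C11 (0.16 to 0.52), 0.34 for H4C6 (0.21 to 0.47), 0.28 for H4C15 (0.12 to 0.44), 0.26 for H4C12 (0.07 to 0.44) and 0.20 for H4C9 (0.05 to 0.36). All 6 intervals lay above 0 and below 1.5-fold, and limma's adjusted p over all probes ranged from 0.12 for H4C6 to 0.29 for H4C9.

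The call on these probes depended on how the arrays entered the fit. With the 4 arrays fitted separately and the dye orientation, which goes with the replicate number, as a block, limma called 4 histone probes at an adjusted p under 0.05, or 5.48%, where it called 5.44% of all probes. These were H4C6, H4C8 and H4C11, which were higher, and H3C10, which was lower. With clone as a random block it called 5, or 6.85%, where it called 6.56% of all probes, and these were H4C6, H4C8, H4C11, H4C12 and H4C15. Both shares were near those of the whole array. Both fits count the 2 arrays of a clone separately, though nothing says that they hold separate cultures, so their p-values may be too small. The consensus correlation of the random block was -0.66, and a negative value lowers the standard error of the mean. Of all probes, 328 passed in the main fit and 2570 with the random block.

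The other 7 H4 probes kept had means between -0.10 and 0.03. H4C3, the brightest of the H4 probes, had 0.14 and -0.02 in sh-G1 and -0.23 and 0.02 in sh-G2 (mean -0.02, interval -0.22 to 0.17). H4C5 had the lowest mean, with 0.11 and -0.15 in sh-G1 and -0.21 and -0.15 in sh-G2. H4C2 and H4C13 had ratios above 0 on both arrays of sh-G1 and ratios of both signs or below 0 in sh-G2. The H4 probes thus fell into genes above 0 on every array and genes of mixed sign, as the plot of the H4 probes shows.

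**Figure D2:**
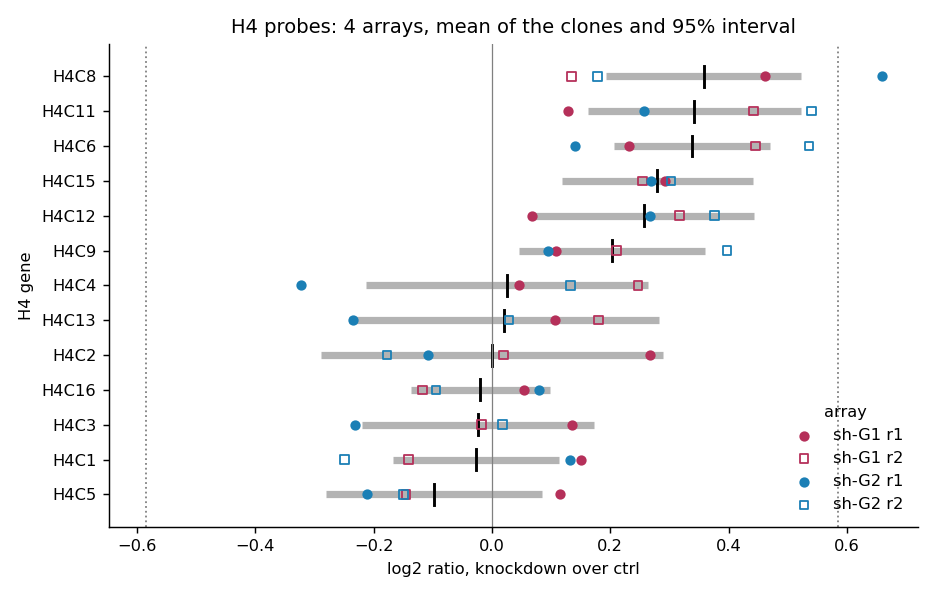
Log2 ratio of knockdown over ctrl (horizontal axis) of the 13 H4 probes kept (vertical axis, ordered by mean). Circles are arrays with the knockdown clone in Cy5 and squares those with it in Cy3, black bars are means of the 2 clones, grey bars their 95% intervals and dotted lines 1.5-fold. All 4 arrays of the top 6 genes lie above 0, and no interval reaches 1.5-fold.

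Promoters of H4 genes are given as a description, and no link between sequence and ratio was tested. RefSeq promoters of GRCh38.p14, each of 300 bases from 250 before to 50 after the start, were found for 60 of the 65 member genes (64 promoters). They are given for H4C6, H4C11, H4C12 and H4C15, which lay above 0 on every array. H4C2 and H4C13, which did not, and H2BC21, a gene of another type, are given as well. H4C8 and H4C9 also lay above 0 on every array and are not shown. Each line holds the 110 bases before the start, on the gene's strand, with capitals for 4 motifs on either strand. These are the TATA box, searched as TATAAA, the CCAAT box, the octamer, searched as ATTTGCAT, and an element of H4 promoters, searched as GGTCCG.
H4C6: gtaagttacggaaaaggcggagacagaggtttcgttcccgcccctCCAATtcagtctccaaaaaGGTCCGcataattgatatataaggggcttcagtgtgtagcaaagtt
H4C11: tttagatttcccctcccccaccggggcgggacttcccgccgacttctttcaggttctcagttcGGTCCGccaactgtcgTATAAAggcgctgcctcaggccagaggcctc
H4C12: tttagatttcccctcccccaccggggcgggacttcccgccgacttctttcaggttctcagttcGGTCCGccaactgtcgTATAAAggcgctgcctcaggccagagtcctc
H4C15: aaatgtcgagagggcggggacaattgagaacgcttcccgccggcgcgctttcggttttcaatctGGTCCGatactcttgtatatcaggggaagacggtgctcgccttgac
H4C2: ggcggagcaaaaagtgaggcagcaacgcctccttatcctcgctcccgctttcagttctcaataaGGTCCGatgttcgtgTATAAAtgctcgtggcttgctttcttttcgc
H4C13: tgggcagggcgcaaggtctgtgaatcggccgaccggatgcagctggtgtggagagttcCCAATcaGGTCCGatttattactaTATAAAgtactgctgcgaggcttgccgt
H2BC21: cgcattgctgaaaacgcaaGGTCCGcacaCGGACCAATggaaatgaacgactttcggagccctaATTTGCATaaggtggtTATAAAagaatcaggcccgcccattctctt

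The windows lie at chr6:26240283-26240392 (forward strand) for H4C6, chr6:27823982-27824091 (forward) for H4C11, chr6:27831561-27831670 (reverse) for H4C12 and chr1:149861160-149861269 (reverse) for H4C15. Those of H4C2, H4C13 and H2BC21 lie at chr6:26027284-26027393, chr6:27873535-27873644 and chr1:149886683-149886792, all on the reverse strand. H4C11 and H4C12, which are neighbours among the members on the array, had the same base at 109 of 110 positions, and their means were 0.34 and 0.26.

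GGTCCG belongs to the cell cycle element of H4 promoters that HINFP binds, and it was added to the search after the H4 promoters had been looked at. It was in 11 of 12 H4 promoters, against 11.3% of all 35116 promoters in the table, 1 of 14 H2A, 1 of 19 H2B, 1 of 13 H3 and 0 of 6 H1 promoters. The H2B promoter with it was that of H2BC21, shown above, which is therefore not typical of its type in this motif. In the 11 H4 promoters the first base of GGTCCG lay between 47 and 44 bases before the start. It was in the promoters of the genes above 0 on every array and in those of H4C2, H4C4, H4C5, H4C13 and H4C16, which were not. The H4 promoter without it was that of H4C7, whose probe was too dim to be kept.

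The other motifs also went with histone type. ATTTGCAT, the octamer that POU2F1 (Oct-1) binds in H2B promoters, was in 14 of 19 H2B and 11 of 14 H2A promoters, against 1.77% of all promoters. H2A and H2B genes often lie head to head, so a promoter of this length can reach into that of the neighbour. CCAAT was in 3 of 12 H4 promoters and in all promoters of the other types (6 H1, 14 H2A, 19 H2B and 13 H3), against 34.6% of all promoters. TATAAA was in 43 of the 64 member promoters, against 11.5% of all promoters. In H2BC21 a GGTCCG on the reverse strand overlaps a CCAAT. These are matches of letters and say nothing about binding.

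H2A, which pairs with H2B in the nucleosome, leaned the other way in HIST2. The 6 H2A probes of HIST2 and the 1 of HIST3 all had means below 0, from -0.27 to -0.14, with a median of -0.19, whereas the 14 H2A probes of HIST1 had a median of 0.001. This split was seen in the values and was not tested, and the HIST2 genes H2AC19, H2AC20 and H2AC21 have 2 probes each. H2AC19 (A_23_P103981, the brightest H2A probe) had ratios of -0.47 and -0.29 in sh-G1 and of -0.17 and -0.16 in sh-G2, with a mean of -0.27 (interval -0.51 to -0.03, limma adjusted p = 0.34). Its other probe had -0.14 and -0.16 in sh-G1 and -0.35 and 0.10 in sh-G2.

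H2AC21 had -0.17 and -0.18 in sh-G1 and -0.36 and -0.32 in sh-G2 by probe A_24_P68631, with a mean of -0.26. By its other probe it had -0.20 and -0.10 in sh-G1 and -0.60 and 0.22 in sh-G2, with a mean of -0.17. H2AC20 had -0.06 and -0.13 in sh-G1 and -0.22 and -0.16 in sh-G2 by probe A_23_P301247. Of the 6 HIST2 probes, 3 were below 0 on all 4 arrays, where 9.05% of all probes were, and the other 3 were below 0 on 3 arrays, with sh-G2 replicate 2 above it. The other H2A probe below 0 on all 4 arrays was 1 of the 2 for H2AC17, and adjusted p over the H2A probes was at least 0.27.

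H2AC25, the H2A gene of HIST3, had 0.02 and -0.40 in sh-G1 and -0.19 and -0.19 in sh-G2. H2AC6, an H2A gene with polyadenylated transcripts, followed the dye, with 0.47 and -0.50 in sh-G1 and 0.59 and -0.47 in sh-G2. Its mean was therefore close to 0, at 0.02 (interval -0.17 to 0.21). H2AC7 had -0.02 and -0.73 in sh-G1 and 0.35 and -0.50 in sh-G2.

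H2B had the narrowest spread of the 5 types. The means of its 19 probes lay between -0.17 and 0.09, and 14 of them were below 0, where 20365 of all 39152 probes were. The brightest probe was that of H2BC12, with -0.17 and 0.01 in sh-G1 and -0.21 and -0.10 in sh-G2 (mean -0.11, interval -0.30 to 0.07, limma adjusted p = 0.56). H2BC7 had the lowest mean, with -0.24 and -0.12 in sh-G1 and -0.30 and -0.01 in sh-G2. It and H2BC13 were the H2B probes below 0 on all 4 arrays, and H2BC11 was the 1 above 0 on all 4. Of all probes, 9.05% were below 0 and 6.2% above 0 on all 4 arrays.

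Of the H2B genes with polyadenylated transcripts, H2BC4 had 0.15 and -0.09 in sh-G1 and 0.02 and -0.14 in sh-G2. H2BC5 had 0.05 and 0.16 in sh-G1 and -0.26 and 0.11 in sh-G2. Neither had the same sign throughout. The 3 probes of H2BC21 had means of 0.09 (A_23_P149545), 0.08 (A_24_P148321) and -0.04 (A_24_P156911). The first had 0.33 and -0.11 in sh-G1 and 0.35 and -0.18 in sh-G2, the second -0.01 and 0.05 in sh-G1 and 0.01 and 0.29 in sh-G2, and the third 0.46 and -0.41 in sh-G1 and 0.18 and -0.38 in sh-G2. The signs of the first and the third thus followed the dye. Over the 6 genes known for polyadenylated transcripts, by their brightest probes, the median was -0.03.

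H3, the core histone whose tail carries many of the known chromatin marks, had 16 probes with means from -0.37 to 0.13. H3C10 stood lowest, with -0.85 and -0.28 in sh-G1 and -0.40 and 0.05 in sh-G2. Its mean was -0.37 (interval -0.71 to -0.03, limma adjusted p = 0.35), and 3 of its 4 arrays lay below 0. The next lowest H3 mean, -0.16, came from 1 of the 2 probes of H3C2, and the other probe of that gene had 0.04. The brightest H3 probe was that of H3-4, an H3 form of the testis. It had 0.25 and -0.11 in sh-G1 and -0.19 and 0.05 in sh-G2, with a mean of 0.00 (interval -0.19 to 0.19). This probe may read other H3 genes, so its brightness and ratios need not be those of H3-4. Of the 16 H3 probes, 0 lay above 0 and 0 below 0 on all 4 arrays, where 6.2% and 9.05% of all probes did.

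H1 was read by 4 probes. H1-2, the brightest, was below 0 on every array, with -0.07 and -0.20 in sh-G1 and -0.17 and -0.30 in sh-G2 (mean -0.19, interval -0.38 to 0.01, limma adjusted p = 0.39). H1-3 was above 0 on every array, with 0.68 and 0.49 in sh-G1 and 0.03 and 0.16 in sh-G2 (mean 0.34, interval -0.08 to 0.76, limma adjusted p = 0.46). H1-5 had 0.17 and 0.29 in sh-G1 and -0.44 and 0.64 in sh-G2. H1-4 had -0.12 and 0.18 in sh-G1 and -0.54 and 0.13 in sh-G2. The linker histones therefore did not share a direction.

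Genes with several probes showed how far probes of a gene lay apart in their means over dyes and clones. The 11 such genes had probes whose means lay at most 0.20 apart, with a median range of 0.09, and in 5 of the 11 the means of the probes differed in sign. The largest range was that of H3C2, from -0.16 to 0.04, followed by H2AC17 from -0.18 to 0.003 and H2BC21. In H2AC19, H2AC20 and H2AC21 both probes had means below 0. On a single array the values could lie further apart, as for H3C2 with -0.19 and 0.36 on replicate 1 of sh-G1. Probes of a gene share the arrays and the RNA, so these ranges leave out errors of clone, ctrl and dye.

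By cluster, the median of the means was -0.02 over the 56 probes of HIST1, -0.04 over the 13 of HIST2 and 0.0003 over the 3 of HIST3. The HIST4 probe, that of H4C16, had 0.05 and -0.12 in sh-G1 and 0.08 and -0.09 in sh-G2, with a mean of -0.02. In genome order the H4 genes of HIST1 with the higher ratios lay in a stretch from H4C6 to H4C12. No other H4 probe was kept in that stretch, and genes of other types with means near 0 or below it lay between them. The H4 probes kept elsewhere in HIST1 had means from -0.10 to 0.03. This position was seen in the values and was not tested. HIST2 held both H4C15, above 0 on all 4 arrays, and the H2A genes below 0.

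**Figure D3:**
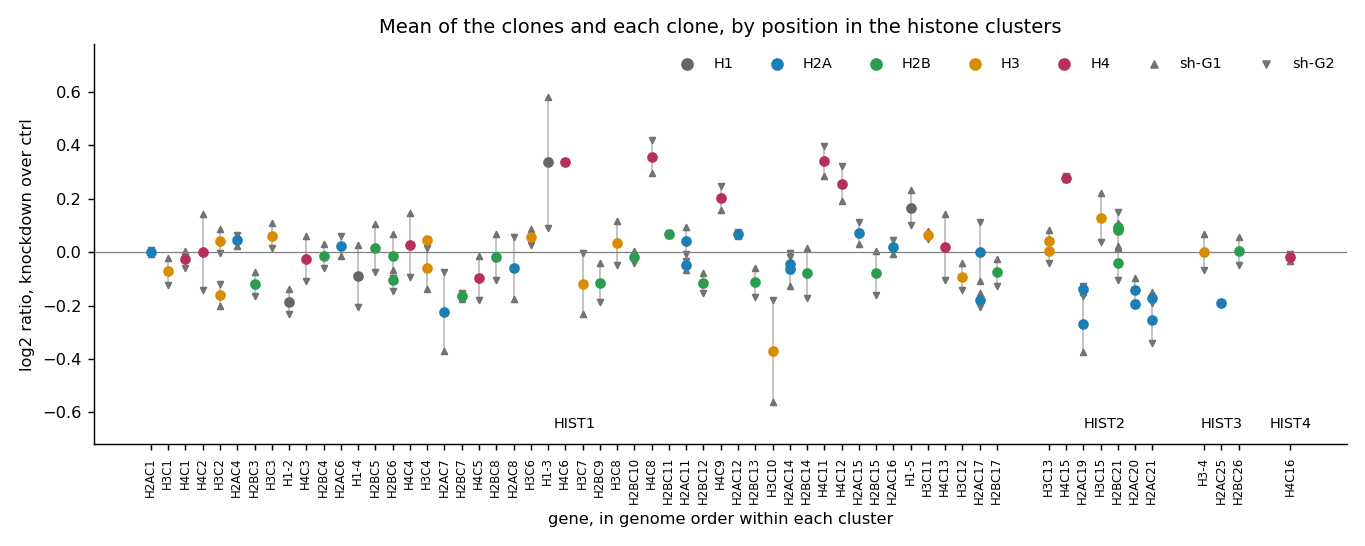
Mean log2 ratio of knockdown over ctrl (vertical axis) of each histone probe kept, with genes in genome order within each cluster (horizontal axis, by rank and not by distance). Coloured points are means of the 2 clones by histone type, and triangles joined by a line are the clones. H4C6, H4C8, H4C9, H4C11, H4C12 and H4C15 stand between 0.20 and 0.36, and the H2A genes of HIST2 below 0.

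The clones were then compared with each other. By limma on the 4 arrays with terms for clone and dye, 0 histone probes differed between sh-G1 and sh-G2 at an adjusted p under 0.05, against 0.11% of all probes. At an unadjusted p under 0.05 there were 2, H1-3 and H3C10, or 2.74%, against 7.43% of all probes. H1-3 was 0.49 higher in sh-G1 than in sh-G2 (interval 0.13 to 0.85, limma adjusted p = 0.48), and its arrays did not overlap between the clones. H3C10 was lower in sh-G1, with a difference of -0.38 (interval -0.67 to -0.09, limma adjusted p = 0.50). The 6 H4 probes above 0 on every array differed between the clones by -0.13 to 0.0005, each with an interval that included 0. All histone probes but H1-3 and H3C10 had such an interval. The 6 were chosen for their sign in both clones, so their agreement is partly built in. Because both clones were set against the same ctrl RNA, a deviation of ctrl enters both values.

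**Figure D4:**
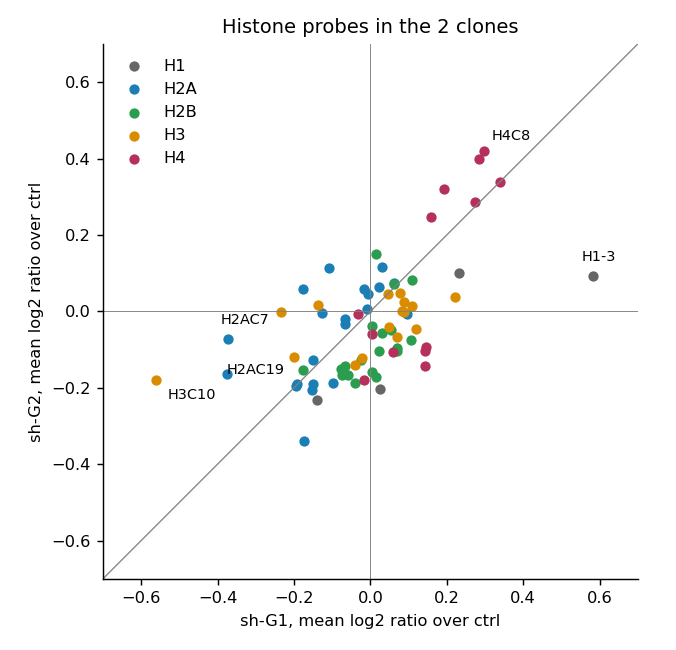
Mean log2 ratio over ctrl of the 73 histone probes in sh-G1 (horizontal axis) and in sh-G2 (vertical axis), coloured by histone type, with a diagonal line for equal values. H1-3 lies far to the right of the line, with a mean of 0.58 in sh-G1 against 0.09 in sh-G2, and the 6 higher H4 probes lie on or above it.

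Ratios were also compared between the dye orientations, which go with the replicate number, so that the dye and anything else shared by arrays of 1 number cannot be told apart. Of the histone probes, 19 of 73, or 26.0%, had opposite signs on the dye-swapped arrays of both clones with the same dye higher in both, where 40.5% of all probes did. Across the 73 probes, which are not independent, the 2 dye orientations correlated with r = 0.13 within sh-G1 and r = -0.25 within sh-G2. Arrays of the same dye orientation, which share the dye but not the knockdown clone, correlated across the clones with r = 0.59 and r = 0.78. The ctrl clone was on all 4 arrays. The part of a ratio that followed the dye, as a signed average over the 4 arrays, was largest for H2AC6 with 0.51, H2AC7 with 0.39, H2BC21 (A_24_P156911) with 0.36 and H2BC10 with 0.32. H2BC10 had 0.27 and -0.26 in sh-G1 and 0.34 and -0.42 in sh-G2. In H2AC6, H2BC10 and this probe of H2BC21 the sign turned between the orientations in both clones, and in H2AC7 it turned in sh-G2 alone. The median size of this part was 0.10 over the histone probes and 0.12 over all probes.

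**Figure D5:**
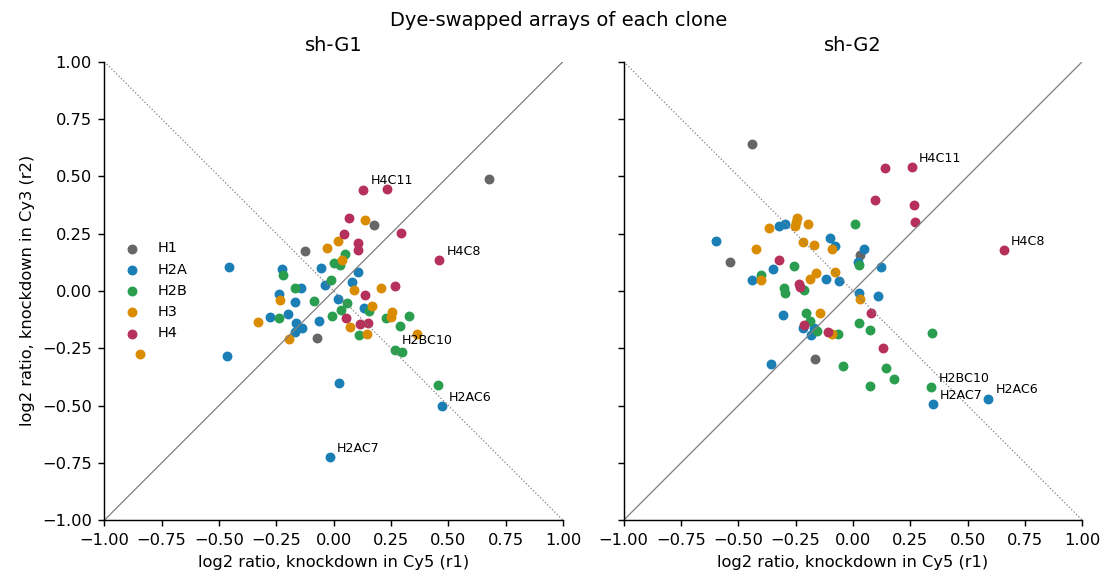
Log2 ratio of knockdown over ctrl of the 73 histone probes with the knockdown clone in Cy5 (horizontal axis) and in Cy3 (vertical axis), for sh-G1 on the left and sh-G2 on the right. On the solid diagonal both arrays give the same value and on the dotted one opposite values. H2AC6 and H2BC10 lie by the dotted line, and the higher H4 probes in the upper right part.

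The genes that supply histones were near ctrl as well. Among 12 genes of histone transcription, 12 of histone pre-mRNA 3' end processing, 10 of histone mRNA decay and 18 of 19 histone chaperones measured, limma called 0 higher and 0 lower in each list, and 0 were 1.5-fold changed on all 4 arrays. The medians of these lists were 0.07, 0.05, 0.08 and 0.06. At an unadjusted p under 0.05 by limma there were 3 transcription genes (HINFP, CCNE1 and CCNE2), 0 of 3' end processing, 1 of decay (SMG1) and 1 chaperone (NAP1L1), with means of -0.23, -0.27, 0.16, -0.20 and -0.27. Of all probes, 13.3% did. NPAT, which organises histone transcription, had -0.03 and 0.01 in sh-G1 and 0.20 and -0.18 in sh-G2. CASP8AP2 (FLASH), which links NPAT bodies to 3' end processing, had -0.38 and -0.07 in sh-G1 and 0.30 and 0.21 in sh-G2. It was thus below 0 in one clone and above 0 in the other, with a mean of 0.01. HINFP, the activator of H4 genes, had -0.71 and 0.09 in sh-G1 and -0.40 and 0.08 in sh-G2, with a mean of -0.23 (interval -0.45 to -0.02, limma adjusted p = 0.35). Its sign thus followed the dye in both clones.

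SLBP, which binds the stem-loop, had -0.02 and 0.01 in sh-G1 and 0.43 and -0.19 in sh-G2, with a mean of 0.05 (interval -0.14 to 0.25). LSM10 and LSM11, subunits of the U7 snRNP that cleaves histone pre-mRNA, had means of 0.05 and -0.13. Of the chaperones that hand new histones to DNA, ASF1B had a mean of 0.06, CHAF1A of 0.07 and CHAF1B of 0.15, with adjusted p of at least 0.44 by limma. NASP had no probe matched by accession. These genes lay within the range of the histone probes themselves.

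Of 14 histone variants encoded outside the clusters, 12 were measured, with a median of 0.07. Limma called 0 in either direction, where it called 0.138% of all probes higher and 0.7% lower. At an unadjusted p under 0.05 there were 2, where 13.3% of all probes had such a p. H2AZ1, the variant H2A of promoters, had 0.58 and -0.26 in sh-G1 and 0.44 and -0.13 in sh-G2, with a mean of 0.16 and an unadjusted p under 0.05 by limma. Its sign thus followed the dye in both clones. H2AX, the variant phosphorylated at DNA breaks, had a mean of 0.07, H2AJ of 0.10, H3-3B, which encodes the replication-independent H3.3, of 0.07 and MACROH2A1 of -0.08.

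Genes of DNA replication were set beside the histones. The arrays do not measure the share of cells in S phase. Of 20 genes, limma called 0 in either direction, where it called 0.138% of all probes higher and 0.7% lower. The median was 0.11, with means from -0.20 to 0.32. Above 0 on all 4 arrays lay 5 and below 0 on all 4 lay 0, where 6.2% and 9.05% of all probes did. At an unadjusted p under 0.05 there were 6, which were PCNA, RRM2, RRM1, MCM7 and MCM3 with means from 0.17 to 0.32 and CDT1, which licenses origins, with -0.20, where 13.3% of all probes had such a p. CDT1 had -0.47 and 0.13 in sh-G1 and -0.56 and 0.09 in sh-G2, so that its sign followed the dye in both clones. RRM1 had 0.27 and 0.01 in sh-G1 and 0.86 and -0.21 in sh-G2. PCNA, the sliding clamp of DNA polymerase, had 0.43 and 0.12 in sh-G1 and 0.60 and 0.13 in sh-G2. It was above 0 on every array like the H4 probes named above, as were RRM2, MCM7 and MCM3. With the dye orientation as a block, 1 gene of these 6 lists passed, PCNA, with a mean of 0.32 (limma adjusted p = 0.047). With clone as a random block 4 passed, the higher PCNA, MCM7 and RRM2 and the lower CCNE1, a cyclin of the G1/S transition. Both of these fits count the arrays of a clone separately. The median of the histone probes, -0.02, lay below the median of the replication genes, a difference that was not tested.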

How the data were processed

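The labels describe 4 arrays of 2 colours, 2 for each knockdown clone, with dyes exchanged. The authors scanned them, and the deposited intensity values are median spot and background signals of Agilent Feature Extraction (8.5.1.1 in the submitters' processing notes, 10.5.1.1 in the array files). The deposited log10 ratio of Cy5 over Cy3 is that software's, and the series matrix repeats it for 3 of 4 arrays. Its other column holds the error of the ratio. The software's own p-values were not used. Probes were named through RefSeq accessions (GRCh38.p14, names, gene order and promoters only), 25398 of 41000.

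Spots with outlier marks were left out, background was corrected (normexp, offset 50), ratios were normalised by loess within arrays, turned to knockdown over ctrl, and averaged per probe. Of 40905 probes with values, 39152 had a channel well above background on every array and were kept. Arrays of a clone were averaged, since nothing says that they hold separate cultures. The mean of the clones was set against 0, so that variation of ctrl, 1 clone, does not enter the test. Disagreement between the arrays of a clone enters only through the clone means. The difference between clones was fitted on the 4 arrays with a dye term, and its p-values measure a spread between arrays that may be technical. Both used limma 3.58.1 (R 4.3.3, eBayes with trend) with Benjamini-Hochberg adjustment over all probes kept. The random block used statmod 1.5.0, and figures matplotlib 3.10.9. Scripts were tested on simulated data. With 4 arrays, precision is low.

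Replicate number and dye orientation go together in the labels. Over all probes kept, arrays of the same number correlated across the clones with r = 0.61 and 0.73, and the dye-swapped arrays of a clone with r = 0.32 and 0.19. The dye was therefore also fitted as a replicate block.

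Members, lists and tests were chosen with earlier results of these data known. Named were GALNT3, members past 1.5-fold on both arrays of a clone or past limma (there were 0), the brightest probe of each type, genes whose probes differ by over 1 on the log2 scale (there were 0), the genes known for polyadenylated transcripts, chosen supply and variant genes, and list genes past either rule. All other genes were named after their values were seen. Each list gene is represented by its brightest probe. Marker lists also held CDH1, PAX8, WT1, MUC16, KRT19 and EPCAM (epithelium, with means from -0.33 to 0.04), VIM, CDH2 and FN1 (mesenchymal, 0.01, -1.50 and 0.02) and PECAM1 (endothelium, 0.02). CDH2 was at least 1.5-fold lower on all 4 arrays, with adjusted p = 0.18 by limma. The values of 1 gene of the lists are not reported here.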

Additional observations from a re-analysis of the deposited data

How the results depend on the processing

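The limma count on the mean of the clones, 0 histone probes, stayed at 0 with median centring, an offset of 0 or raw signals without background correction, the scanner software's own ratios, outlier spots kept, no filter on dim probes, both channels above background, 1 probe a gene and each array left out (0 to 0). It became 4 with the replicate block (dye orientation), 5 with clone as a random block, whose consensus correlation between arrays of a clone was -0.66, and 1 with the series matrix values, H4C6 with a mean of 0.60. With ctrl given the spread of the clones it was 0, with 3 histone probes and 1861 of all probes at an unadjusted p under 0.05, and 0 of all probes past the threshold. Without the dye term (no replicate block) the count of histone probes differing between the clones stayed at 0. The cause of these differences was not tested. The count of pathway genes past limma, 0, became 1 with the replicate block and 4 with the random block. Both block fits count the arrays of a clone separately.

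The count of histone probes at least 1.5-fold in sh-G1 was 1 with the scanner software's ratio (H1-3) and 4 with the series matrix, which holds 1 array of that clone (H1-3, H1-5 and H4C6 higher, H3C10 lower). With an array left out, so that 1 array decided, it ranged from 0 to 2 (without sh-G1 replicate 1 it was 1, H2AC7, and without sh-G1 replicate 2 it was 2, H1-3 and H3C10). In sh-G2 it ranged from 0 to 3 (without sh-G2 replicate 1 it was 1, H1-5, and without sh-G2 replicate 2 it was 3, H4C8 and H2AC6 higher and H2AC21 lower). On all 4 arrays the count was 0 throughout.

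The median log2 ratio of the histone probes, -0.02, was 0.048 with the series matrix values and 0.01 with the software's ratios, and ranged from -0.06 to 0.005 with an array left out, so its sign depended on these choices. The medians by type, 0.04 for H1, -0.06 for H2A, -0.04 for H2B, 0.02 for H3 and 0.03 for H4, ranged with an array left out from -0.13 to 0.09, -0.13 to -0.01, -0.09 to -0.01, -0.06 to 0.07 and 0.06 to 0.14, and were 0.14, -0.05, 0.03, 0.08 and 0.19 with the series matrix. Of 28 named member probes, 17 kept the sign of their mean under the 9 settings that changed the mean of any of them, among them the 6 higher H4 probes, H3C10, H1-2 and H1-3, and 11 did not, among them 1 of the 2 probes of H2AC21. The 6 higher H4 probes, H1-2 and H1-3 each had the same sign on all 4 arrays. Leaving out an array therefore could not turn the sign of their means, and only the other settings could. The comparison of the clones without an array was not run, since no degrees of freedom remain. Of the 77 histone probes, 4 were too dim to be kept.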
